A study of Homo sapiens with 12 samples.

Results

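The transcript response of HT1080 cells to concanavalin A (ConA) was read from 1 of the 2 experiments of the series, with 6 of its 12 libraries. Its members were the 15139 genes, of 15991 listed for the experiment, whose mean over these 6 libraries reached 10 normalized counts. HT1080 is an established human fibrosarcoma line of unmodified (wt) genotype, so the samples stand for 1 line. Cells were seeded at 1000000 per dish in biotin-depleted medium with 10% serum, and after 3 days were moved to biotin-depleted medium with 1% serum. The 3 ConA libraries (replicates 1 to 3) came from cells that also received 40 µg/mL ConA for 24 h, and the 3 control libraries (replicates 4 to 6) from untreated cells. Polyadenylated RNA was sequenced. Nothing in the labels says that the libraries of a group came from separate cultures, so the p-values measure the spread between these libraries, which may be technical.

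ConA is a jack bean lectin that binds mannose-bearing glycans on glycoproteins of the cell surface and is best known as a mitogen of T lymphocytes. On fibrosarcoma cells it is used to study the activation of matrix metalloproteinases. Interferons are secreted cytokines that act through JAK kinases and transcription factors of the STAT and IRF families. These bind the interferon-stimulated response element (ISRE) and the gamma-activated site (GAS) in the promoters of many antiviral and antigen presentation genes. NF-kB is held in the cytoplasm by inhibitors such as NFKBIA and, once freed, activates genes of chemokines, adhesion molecules and its own inhibitors. Messenger RNAs of ribosomal proteins and of many translation factors begin with a run of pyrimidines, the 5′ terminal oligopyrimidine (TOP) motif, and their translation is set by the growth-sensing kinase mTOR.

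The deposited values are normalized counts per gene, not divided by gene length, so levels are compared between libraries and not between genes. Estimated depth per library was 38.8 to 45.6, in units of 1000000 reads. The first principal component (87.0% of the variance of log2 values) separated ConA from control libraries. ConA replicate 1 lay closest to the controls on it, at -46.0 against -56.0 and -56.1 for the other two, with the controls at 51.2 to 53.9. It was the ConA library nearest the controls for 627 of 882 genes called higher (71.1%), against 52.2% of all genes tested. The defining mesenchymal genes VIM and FN1 were abundant in every library (lowest value 77843 for VIM and 160065 for FN1). Neither was called, with log2 fold changes of -0.86 to -0.58 for VIM and -0.82 to -0.10 for FN1 over the alternative fits. Of 14 mesenchymal and fibroblast markers 1 was called higher and 1 lower. Their summed level was 500837 to 578507 normalized counts in control and 376595 to 409355 in ConA libraries. Of 24 T and NK cell markers searched, 4 passed the filter on low values, with a summed level over all listed markers of 71.1 to 80.0 normalized counts in control and 137 to 155 in ConA libraries, most of the rise in GZMA (11.5 ± 2.19 to 75.3 ± 13.5, SD, n = 3). The leukocyte gene PTPRC and the T cell gene CD3E were not among the genes tested. Of 15 monocyte and macrophage markers 5 passed, and their sum of 6203 to 6629 against 17600.2 to 20819 normalized counts was nearly all CD68. The part of other cells in any result was not tested.

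Changes were tested with limma on log2(normalized count + 1) over the 6 libraries. A gene was called when its level moved at least 2-fold either way (a log2 fold change of 1 or more in size) with an adjusted p no larger than 0.0001. The calls were 882 rises (5.83%) and 436 falls (2.88%), and the libraries of the groups did not overlap for 10494 genes (69.3%). The median log2 fold change over all genes tested was -0.00, and the middle 90% lay between -0.95 and 1.32. Of 52 genes at 3 estimated reads or fewer in every control library 49 were called higher, and such genes passed the minimum only through their level with ConA. In bulk RNA, fewer cells of a type and less RNA per cell cannot be told apart. The response was uneven in size, since 118 genes rose at least 16-fold and none fell as much. Without the variance trend of the limma fit 506 genes were called higher and 156 lower. Permuting 3 libraries against 3 exactly, gene by gene, could reach no p smaller than 0.1. The called genes were described through 74 gene classes, 72 of which had a tested member. These classes held 381 of the 1318 called genes, and the other 937 belonged to none.

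**Figure D1:**
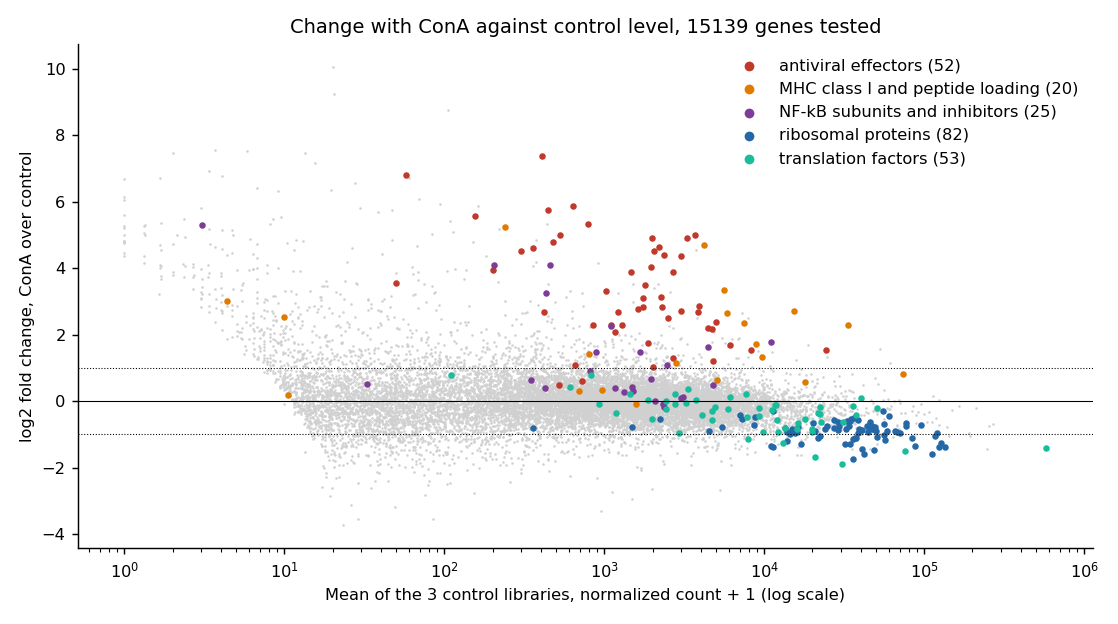
Each point is 1 of 15139 genes, with the mean of the 3 control libraries plus 1 (log scale) on the x axis and the log2 fold change with ConA on the y axis; dotted lines mark changes of 1 and -1. Antiviral effectors and all but 1 of the MHC class I genes lie above 0 over a broad range of control levels, and ribosomal protein genes, mostly at the right, all lie below 0.

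Genes of interferon signalling were called higher more often among sensors and effectors than in the class of receptors, kinases and inhibitors. The 2 ligands tested stayed below 50 normalized counts in every library. Of these 2, IFNL1, a type III interferon, was called. It was at 0, 3.00 and 2.00 normalized counts in the controls and at 36, 39.7 and 40.4 with ConA, at least 12.7-fold higher when the controls are set to 3 estimated reads per library. The call was lost without ConA replicate 2 or 3, with a pseudocount of 0.1 and without the variance trend. The type I ligand IFNE, at 12.5, 37 and 28 normalized counts in the controls and 12, 8.36 and 6.29 with ConA, was not called (log2 fold change -1.36, adjusted p = 0.00974). A class of 14 genes held interferon receptors, JAK kinases, SOCS inhibitors and USP18. Of these 2 rose, IFNAR2 and USP18, and none fell, beside 5.83% and 2.88% of all genes. The class median log2 fold change was 0.43, and 12 of the 14 had a positive one. The receptor subunit IFNAR2 rose from 701 ± 7.78 to 1559.5 ± 86 normalized counts (SD, n = 3). USP18, the protease that removes ISG15 from proteins and damps the type I receptor, rose 29.1-fold (log2 fold change 4.86, SE 0.07, adjusted p = 2.92e-16).

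Of 15 STAT and IRF transcription factors 8 rose and none fell (median log2 fold change 1.12). STAT2, a signal carrier of the type I and type III receptors, read 2239, 2261 and 2285 normalized counts in the control libraries and 8646, 8827 and 9389 in the ConA libraries. The groups lay far apart for this gene, a 3.96-fold rise (log2 fold change 1.98, SE 0.05, adjusted p = 3.69e-13). BATF2, a leucine zipper factor induced by interferon, rose 8.03-fold. IRF1 rose by a log2 fold change of 1.22. IRF9, the DNA-binding partner of STAT2, had a log2 fold change of 0.82 and did not reach the fold threshold.

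The 20 sensors of foreign nucleic acid and their adaptors gave 14 rises and no fall, with a median of 1.64. ZBP1, a sensor of Z-form nucleic acid, stood at 1.04, 1.00 and 1.00 normalized counts in the controls and at 326, 344 and 398 with ConA, at least 117-fold higher. The RNA helicases IFIH1 (MDA5) and DDX58 (RIG-I) rose 18-fold and 10.6-fold. NLRC5, the transactivator of MHC class I genes that is grouped with these sensors, rose 6.51-fold.

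Nearly all antiviral effectors rose, with 50 of 52 members called higher and a median log2 fold change of 2.98, against 5.83% of genes and a median of -0.00 over all genes tested. The number called was 49 to 50 with each library left out in turn, and 49 without the variance trend. APOBEC3B, at a log2 fold change of 0.61, was 1 of the 2 not called. RSAD2 (viperin, which makes a chain-terminating nucleotide) read 405, 415 and 405 normalized counts in the controls and 61806, 71725 and 71347 with ConA. Replicate spread was small beside this 167-fold rise (log2 fold change 7.38, SE 0.06, adjusted p = 4.38e-18). IFI44L rose from 56.8 ± 0.636 to 6437 ± 629.9 normalized counts (SD, n = 3), the second largest log2 fold change of the class at 6.79.

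Several effectors were among the 10 largest gains in normalized counts of called genes. ISG15, a ubiquitin-like protein that is joined to other proteins and also secreted, read 3469, 4026 and 3579 normalized counts in the controls and 124144, 118419 and 113699 with ConA. IFI6 rose from 3276 ± 336 to 99186 ± 4185 and IFITM1, a membrane protein that blocks virus entry, from 3025 ± 115 to 62215 ± 1487. IFITM1 shares sequence with its neighbours IFITM2 and IFITM3, so how its reads were split is uncertain. The 52 members held 0.295 ± 0.00257% of all normalized counts in the controls (SD, n = 3) and 3.04 ± 0.117% with ConA. The tethering protein BST2 (53.6-fold), the RNA-sensing OAS relative OASL (58.6-fold) and the ISG15 ligase HERC5 (48.2-fold) had other large rises.

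Guanylate-binding proteins, GTPases that attack the vacuoles of intracellular pathogens, gave 7 rises among 9 members of their class (median 1.87). GBP4 rose from 12.5 ± 4.84 to 2308 ± 288 and GBP5 from 14.5 ± 2.30 to 2230.2 ± 291 normalized counts (SD, n = 3), with no overlap for either. The immunity-related GTPase IRGM was not called, at a log2 fold change of -0.73. All 4 apolipoprotein L genes tested rose, among them APOL1, the trypanosome-lysing factor (9.72-fold) and APOL3 (log2 fold change 3.30).

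**Figure D2:**
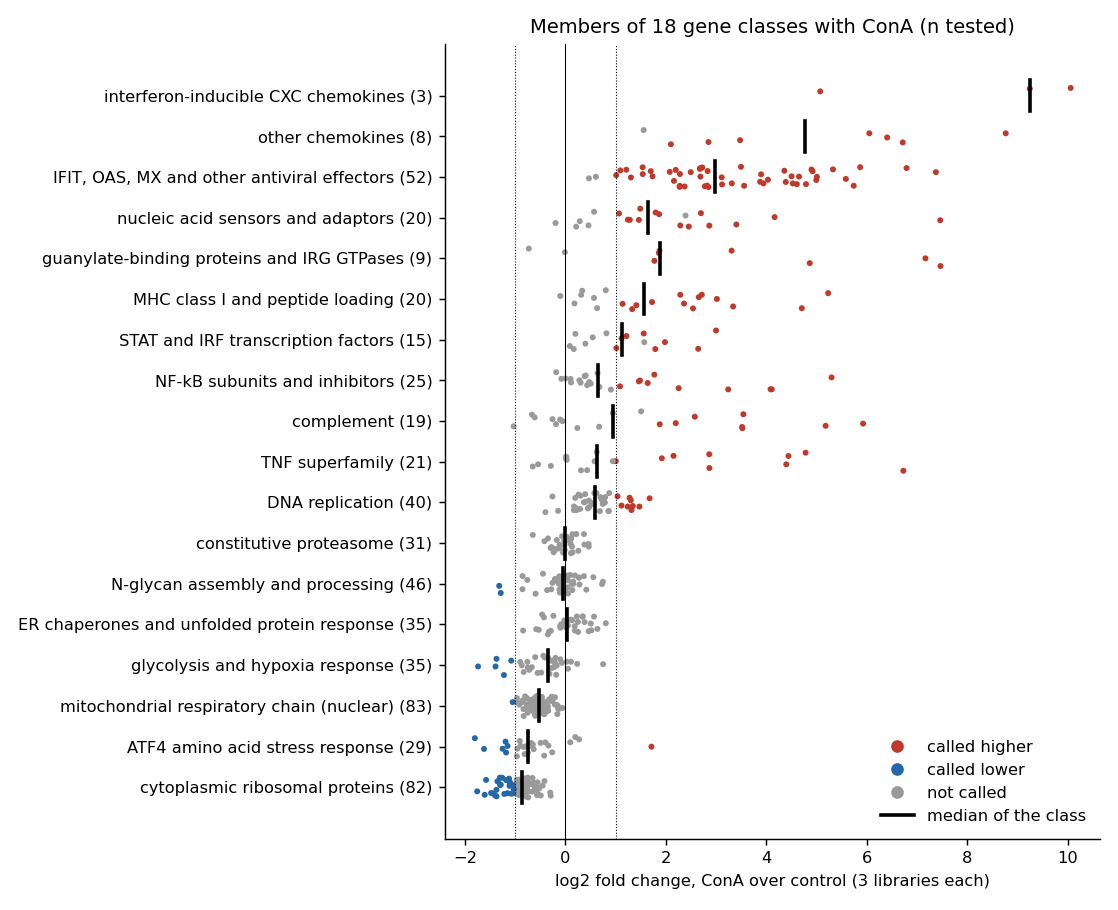
Each point is the log2 fold change with ConA of 1 tested member of the class named at the left, coloured by call, and the black bar is the class median; dotted lines mark 1 and -1. Chemokine, antiviral and antigen presentation classes lie to the right, the proteasome, N-glycan and ER chaperone classes centre on 0, and the ATF4, respiratory chain and ribosomal protein classes lie to the left.

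The promoters of 4 of these genes are shown because each holds the short core of the ISRE, written here as GAAANNGAA and searched on both strands. The 250 bases before the RefSeq start (GRCh38.p14) are given 5′ to 3′ in the direction of the gene, with matches in capitals, for CXCL10 (chr4:76023498-76023747 on the minus strand), ISG15 (chr1:1013247-1013496 on the plus strand), IFIT1 (chr10:89392373-89392622 on the plus strand) and TNFSF10 (chr3:172523431-172523680 on the minus strand). They were chosen after the matches were known.
CXCL10: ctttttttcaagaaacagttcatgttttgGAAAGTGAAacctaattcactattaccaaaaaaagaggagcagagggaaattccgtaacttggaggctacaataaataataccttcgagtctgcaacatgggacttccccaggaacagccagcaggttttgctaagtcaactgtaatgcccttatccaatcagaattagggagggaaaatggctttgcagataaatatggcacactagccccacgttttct
ISG15: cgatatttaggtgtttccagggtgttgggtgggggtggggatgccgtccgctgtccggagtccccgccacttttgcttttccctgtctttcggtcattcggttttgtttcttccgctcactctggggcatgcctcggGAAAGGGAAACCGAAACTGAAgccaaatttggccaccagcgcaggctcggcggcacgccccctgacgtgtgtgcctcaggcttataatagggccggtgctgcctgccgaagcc
IFIT1: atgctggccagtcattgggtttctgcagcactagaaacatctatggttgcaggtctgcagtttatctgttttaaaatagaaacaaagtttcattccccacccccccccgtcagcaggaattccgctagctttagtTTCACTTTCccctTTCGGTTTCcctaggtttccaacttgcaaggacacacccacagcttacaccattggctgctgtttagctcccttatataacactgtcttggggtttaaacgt
TNFSF10: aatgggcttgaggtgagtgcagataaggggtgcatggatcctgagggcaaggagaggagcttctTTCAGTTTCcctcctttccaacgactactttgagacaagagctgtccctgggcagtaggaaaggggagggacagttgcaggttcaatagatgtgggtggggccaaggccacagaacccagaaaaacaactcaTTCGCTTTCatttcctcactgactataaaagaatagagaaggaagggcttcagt
The core occurred once in CXCL10, as a row of overlapping copies in ISG15, and more than once in IFIT1 and TNFSF10. A promoter sequence was at hand for 11545 of the 15139 genes tested, of which 5.67% held the core. It was held by 24 of the 40 antiviral effectors with a promoter and by 101 of 633 genes called higher, against 4.39% of genes called lower. A match is a description of these letters and not evidence of a bound site, and matches of different motifs may share bases.

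Genes of MHC class I antigen presentation rose together, with 13 of 20 called higher, none lower and a median of 1.57. Class I molecules display peptides from inside the cell to cytotoxic T cells. HLA-B read 4007, 4397 and 4102 normalized counts in the controls and 104860.0, 108621 and 113415 with ConA, a 26.1-fold rise (log2 fold change 4.71, SE 0.06, adjusted p = 7.79e-17). The classical gene HLA-C rose 10.1-fold. HLA-F had the largest log2 fold change of the class at 5.23, and since HLA genes share long stretches of sequence the split of reads among them is uncertain. The common light chain B2M gained the most normalized counts of any called gene, from 33302 ± 1922 to 162648 ± 7718 (SD, n = 3). TAP1, which carries peptides into the endoplasmic reticulum, rose 6.31-fold. The share of normalized counts held by these 20 genes went from 0.453 ± 0.0121% to 1.81 ± 0.0449%.

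Constitutive and interferon-inducible subunits of the proteasome, the protease that makes the peptides, are given side by side. None of 31 constitutive subunits was called by limma (20 had an unadjusted p under 0.05, against 10329 of all genes), and their median log2 fold change was -0.01. Of the 6 immunoproteasome and PA28 genes 2 were called higher, the catalytic subunits PSMB9 (2212, 2737 and 2607 against 12887, 11418 and 11515 normalized counts) and PSMB10 (log2 fold change 1.30). PSMB8, the remaining inducible catalytic subunit, had a log2 fold change of 0.97 (adjusted p = 3.28e-09), just under the fold threshold. The number called was 4 without control replicate 5, 3 without ConA replicate 3 and 2 without any other library. The class II pathway gave 6 rises in 12, led by the protease CTSS (70.0-fold), the thiol reductase IFI30 (18.3-fold) and HLA-DOB (log2 fold change 3.99). The invariant chain CD74 rose from 1214 ± 21.6 to 11733 ± 1161. CIITA, the class II transactivator, was not called at 0.53, nor was the class II chain HLA-DRA at 0.77.

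A class of immune checkpoint genes gave 6 rises in 14. LGALS9, the galectin ligand of TIM-3, rose from 162 ± 4.11 to 9588 ± 488 normalized counts (SD, n = 3). CD274 (PD-L1) read 777, 768 and 774 in the controls and 1874, 2304 and 2174 with ConA, a 2.74-fold rise with no overlap. Its relative PDCD1LG2 (log2 fold change 1.97) and the phagocytosis checkpoint CD47 (1.71) also rose. NT5E, the adenosine-producing ectonucleotidase, rose from 10.4, 4.00 and 5.01 to 41.1, 52.3 and 74.6 normalized counts, and its call was lost without ConA replicate 3.

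Chemokines held the 3 largest rises of the data, those of CXCL10, CXCL11 (log2 fold change 9.25) and CCL5. CXCL10, which draws T and NK cells through the receptor CXCR3, read 12.5, 28 and 17 normalized counts in the controls and 16553, 23373 and 22294 with ConA (log2 fold change 10.06). CXCL9, the third CXCR3 ligand, was at 0, 1.00 and 0 in the controls and at 25, 59.6 and 47.6 with ConA, at least 14.5-fold higher. Of the other chemokines 7 of 8 tested rose, with a median of 4.77. CCL5 (RANTES) read 96.9, 108 and 106 in the controls and 34592, 52169 and 52639 with ConA, where replicate 1 was the lowest, and rose 448-fold (log2 fold change 8.77, SE 0.12, adjusted p = 2.88e-16). The macrophage inflammatory proteins CCL4 (at least 54.9-fold) and CCL3 (89.7-fold) and the Th17 attractant CCL20 (11.8-fold) followed. CCL3 and CCL4 have near-identical copies (CCL3L1, CCL4L1) among which reads may have been divided. Of the neutrophil-attracting group 2 genes were tested, and CXCL8 (interleukin-8) rose 17.1-fold and CXCL3 2.81-fold.

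Interleukin genes that rose included both agonists and antagonists. In the interleukin-1 family 9 of 15 were called higher (4 without the variance trend). IL18BP, the secreted trap of interleukin-18, rose from 66.9 ± 4.30 to 1728 ± 283, and the alarmin IL33 from 16.6 ± 0.498 to 196 ± 44.8 normalized counts (SD, n = 3). IL1RN, the receptor antagonist, stayed low at 31, 36.6 and 34.1 normalized counts with ConA and lost its call when any ConA library was left out. The IL1RN call was also lost without control replicate 5, with a pseudocount of 0.1 and without the variance trend. IL6 rose 15.5-fold, from 144, 137 and 126 to 1844, 2288 and 2172. Of 16 other interleukins and receptors 8 rose, led by the shared receptor chain IL2RG (25-fold), IL7R (11.6-fold) and IL32 (9.53-fold), and IL16 fell (6.20-fold). The fall of IL16 was not called without control replicate 6 or without the variance trend. CSF2 (GM-CSF) rose 4.76-fold, to 50.1, 48.1 and 41.3 normalized counts, and was not called without ConA replicate 2 or 3.

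Among 21 TNF superfamily ligands and receptors 9 rose and none fell (6 to 9 with a library left out, 6 without ConA replicate 2 and 5 without the variance trend). TNFSF10 (TRAIL), the ligand of death receptors, read 62.5, 52 and 63.1 in the controls and 5659, 6907 and 6617 with ConA, a 108-fold rise. The B cell survival factor TNFSF13B rose 27.6-fold and the receptor TNFRSF1B 22.2-fold. TNF itself rose from 8.77 ± 1.37 to no more than 42.5 ± 5.77 normalized counts (SD, n = 3), a call lost without ConA replicate 2 or 3. Cell death genes gave 11 rises in 38 and no fall, on both sides of survival (5 without the variance trend). The inhibitors BIRC3 (17.3-fold), BCL2A1 (5.56-fold) and CFLAR (3.54-fold) rose, as did the BH3-only killer PMAIP1 (5.62-fold), CASP1 (4.59-fold), CASP8 (2.20-fold) and the necroptosis effector MLKL (2.93-fold).

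The NF-kB genes that rose held several of the inhibitors of the pathway and 3 of its subunits. Of 25 tested 10 rose, none fell and the median was 0.64. TNFAIP3 (A20), which removes ubiquitin chains from the signalling complex, read 411, 460.2 and 502 in the controls and 6436, 8525 and 8526 with ConA (log2 fold change 4.09, SE 0.10, adjusted p = 1.85e-13). NFKBIA (IkB-alpha) rose from 1097 ± 52 to 5246 ± 261 normalized counts (SD, n = 3), and TNIP3, a partner of A20, at least 33-fold from 3.13, 0 and 3.01 normalized counts in the controls. Precursor subunits NFKB2 (1.64) and NFKB1 (1.09) and the subunit RELB (1.46) had smaller log2 fold changes, all called. AP-1 subunits showed no common direction, with FOS (2.92-fold), BATF3 and ATF3 (2.11-fold) called higher and 2 called lower among 15, MAF (3.41-fold) being 1 of the 2. The BATF3 call was lost without ConA replicate 2 or 3 or control replicate 4 or 5, and by quantile normalization. Of 31 immediate early and feedback genes DUSP10 and ZFP36L2 rose and KLF2 fell, beside 5.83% and 2.88% of all genes. The KLF2 call was lost without ConA replicate 2 or control replicate 5 or 6.

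The NF-kB site, written as GGNNTTTCC and searched on both strands, lies in the promoters of 3 genes that rose with ConA and are shown for comparison with those above, again as the 250 bases before the RefSeq start (GRCh38.p14): CXCL8 (chr4:73740319-73740568 on the plus strand), TNFAIP3 (chr6:137867009-137867258 on the plus strand) and NFKBIA (chr14:35404750-35404999 on the minus strand). Capitals mark the matches.
CXCL8: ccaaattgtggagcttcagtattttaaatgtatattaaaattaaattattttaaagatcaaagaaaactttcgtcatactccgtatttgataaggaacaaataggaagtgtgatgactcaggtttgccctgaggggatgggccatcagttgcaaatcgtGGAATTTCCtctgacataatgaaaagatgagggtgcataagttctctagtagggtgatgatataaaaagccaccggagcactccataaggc
TNFAIP3: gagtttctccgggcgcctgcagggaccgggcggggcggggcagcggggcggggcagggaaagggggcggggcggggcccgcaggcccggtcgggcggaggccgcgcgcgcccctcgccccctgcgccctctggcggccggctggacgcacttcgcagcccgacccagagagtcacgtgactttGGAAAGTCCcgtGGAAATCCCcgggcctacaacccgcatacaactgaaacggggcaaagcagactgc
NFKBIA: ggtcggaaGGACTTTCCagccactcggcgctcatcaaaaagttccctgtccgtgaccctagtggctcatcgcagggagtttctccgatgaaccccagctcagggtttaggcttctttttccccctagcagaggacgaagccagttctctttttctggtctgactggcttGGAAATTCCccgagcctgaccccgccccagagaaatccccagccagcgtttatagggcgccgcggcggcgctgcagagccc
TNFAIP3 and NFKBIA each held more than 1 match and CXCL8 held 1. The site was held by 6.08% of genes tested that had a promoter, by 12.3% of those called higher, by 5.96% of those called lower and by 40.9% of the NF-kB class itself (9 of 22). The GAS core (TTCNNNGAA) was held by 5.75% of all, 7.27% of called higher and 6.58% of called lower genes, and the AP-1 site (TGANTCA) by 4.43%, 9.79% and 4.70%. By size of change, the ISRE core went from 5.05% of genes within 0.5 of no change to 34.6% of the 78 genes with a log2 fold change of at least 4, and the NF-kB site from 5.45% to 25.6%.

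**Figure D3:**
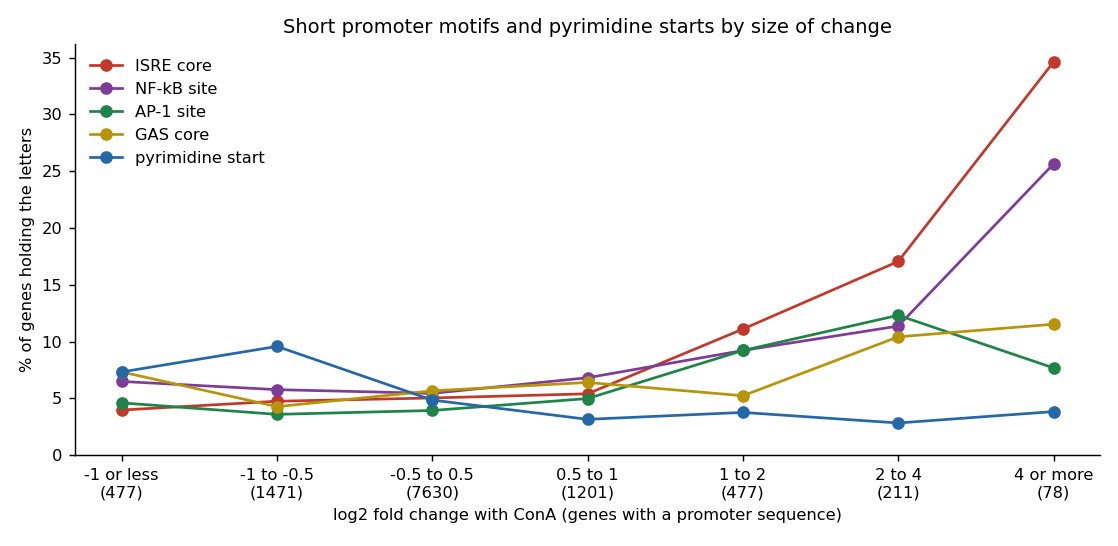
The x axis bins genes by log2 fold change with ConA (number of genes with a promoter sequence in parentheses) and the y axis gives the percent whose 250 bases before the start hold each motif, or whose transcript starts with C and 4 further pyrimidines. The ISRE core and NF-kB lines climb in the bins above 1, and the pyrimidine start is most frequent, at 9.59%, between -1 and -0.5.

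Surface and secreted defence genes followed. Of 14 adhesion ligands of leukocytes 6 rose (3 without the variance trend), and ICAM1, which binds leukocyte integrins, read 429, 444 and 432 in the controls and 15882, 18281 and 18583 with ConA (40.4-fold). CEACAM1 rose from 28.5 ± 14.3 to 1482 ± 150.3 (SD, n = 3). VCAM1 was at 0 in each control library and at 16, 43.9 and 28.8 with ConA, at least 9.71-fold higher, and lost its call without ConA replicate 2 or 3. Integrins, their counterparts, gave no called rise and 1 called fall among 22, beside 5.83% and 2.88% of all genes. The fall was that of ITGB4 (3.18-fold, not called without the variance trend). The largest log2 fold change among the integrins was 2.88 and was not called. Of the integrins 2 were called lower without ConA replicate 1, and 1 was called higher without control replicate 6. Of 19 complement genes 8 rose, with or without any 1 library and without the variance trend. Factor B (CFB) rose 61.8-fold (85.5, 94 and 97.2 to 4912, 5843 and 6349), the C1 inhibitor SERPING1 at least 41.2-fold, and C2 by a log2 fold change of 3.54.

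Enzymes of tryptophan, itaconate and other immune-linked metabolism gave 8 rises and 1 fall among 14 (4 rises without the variance trend). IDO1, which degrades tryptophan, read 9.38, 4.00 and 1.00 in the controls and 789, 943 and 903 with ConA, and ACOD1, which makes itaconate, went from 0 in each control library to 85.1, 107 and 114, at least 33.5-fold higher. The IDO1 call was lost without the variance trend. SOD2, the mitochondrial superoxide dismutase, read 3852, 3751 and 3664 and 83278, 92523 and 90892, a 23.7-fold rise that placed it among the 10 largest gains in normalized counts of called genes. Lectin and scavenger receptors gave 6 rises and 1 fall in 19, among them OLR1 (from 2.70 ± 2.07 to 637 ± 120.4) and CLEC7A (dectin-1, 12.6-fold). Lysosomal genes as a class had a median of 0.07. Their 4 rises in 45, beside 5.83% of all genes, were CTSS, LAMP3 (52.5-fold), LGMN (log2 fold change 1.64) and CTSL (1.13).

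Ribosomal protein genes lay on the other side. Each of the 82 tested had a lower mean with ConA and no overlap between the groups, against 69.3% of all genes without overlap. The change was small and shared, with a median log2 fold change of -0.86, a range from -1.76 to -0.29 and 25 members called lower (16 without the variance trend, 34 without ConA replicate 1), against 2.88% of all genes. RPLP0, a protein of the ribosomal stalk, read 104264, 118699 and 110048 in the controls and 39462, 34885 and 35088 with ConA, a 3.04-fold fall. RPL23 fell 3.37-fold and RPS3A 2.98-fold. Together these genes held 7.62, 8.29 and 7.92% of normalized counts in the control libraries and 4.75, 4.24 and 3.99% in the ConA libraries, of which replicate 1 was highest. Processed pseudogenes share sequence with most of these genes, so reads may have been split. RPL13AP5, annotated as a pseudogene of RPL13A, read 190496 ± 16968 in the controls and 97847 ± 11781 with ConA (SD, n = 3, log2 fold change -0.96).

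Of 53 translation factors 6 fell and none rose (median -0.34). EEF1A1, which brings aminoacyl-tRNA to the ribosome and had the highest value in every library, read 566880.0, 604355 and 568479 in the controls and 227424, 218433 and 211924 with ConA (log2 fold change -1.40, SE 0.07, adjusted p = 6.87e-10). EIF4B, a helicase cofactor, fell 3.72-fold, with 8231, 8179 and 8289 normalized counts in the ConA libraries. EIF3L (log2 fold change -1.69) and EEF1G (-1.49) also fell. EEF2, the translocation factor, was written in no class here and fell 2.71-fold, from 244776 ± 17215 to 90226 ± 7491 (SD, n = 3). By quantile normalization the value of EEF1A1 is fixed as the top rank and its log2 fold change is 0.

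The first bases of 8 transcripts are shown, since the start carries the TOP motif. The 5 bases before the RefSeq start are in lower case and the first 15 of the transcript in capitals (GRCh38.p14).
EEF1A1: acgttCTTTTTCGCAACGGG
EEF2: gcgttCTCTTCCGCCGTCGT
RPLP0: gaggcCCTTCTCTCGCCAGG
RPL3: ccggcCTCTACCGGCGGGAT
RPS3A: ttccgCCCTTTTGGCTCTCT
RPS6: tggccCTCTTTTCCGTGGCG
EIF4B: cgggtCTTTTGCGTTCTCTT
RPL4: gtggtAAGCACTTCCTTTTC
In this order they lie at chr6:73521018-73521037 on the minus strand, chr19:3985449-3985468 on the minus strand, chr12:120201097-120201116 on the minus strand, chr22:39319609-39319628 on the minus strand, chr4:151099623-151099642 on the plus strand, chr9:19380222-19380241 on the minus strand, chr12:53006451-53006470 on the plus strand and chr15:66504841-66504860 on the minus strand. Of these, RPL3 and RPL4 lacked C and 4 further pyrimidines at the annotated start, and fell 2.39-fold and 2.58-fold. RPS6, which has that start, fell 2.55-fold. Such a start was found in 5.30% of all genes with a promoter sequence and in 65.7% of ribosomal protein genes (44 of 67). Within that class the median log2 fold change was -0.83 for the 44 genes with the start and -0.91 for the 23 without. Among translation factors the medians were -0.84 (11 genes) and -0.13 (33 genes), and among all other genes -0.11 (557) and 0.01 (10877). These are descriptions across genes, which are not independent replicates.

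**Figure D4:**
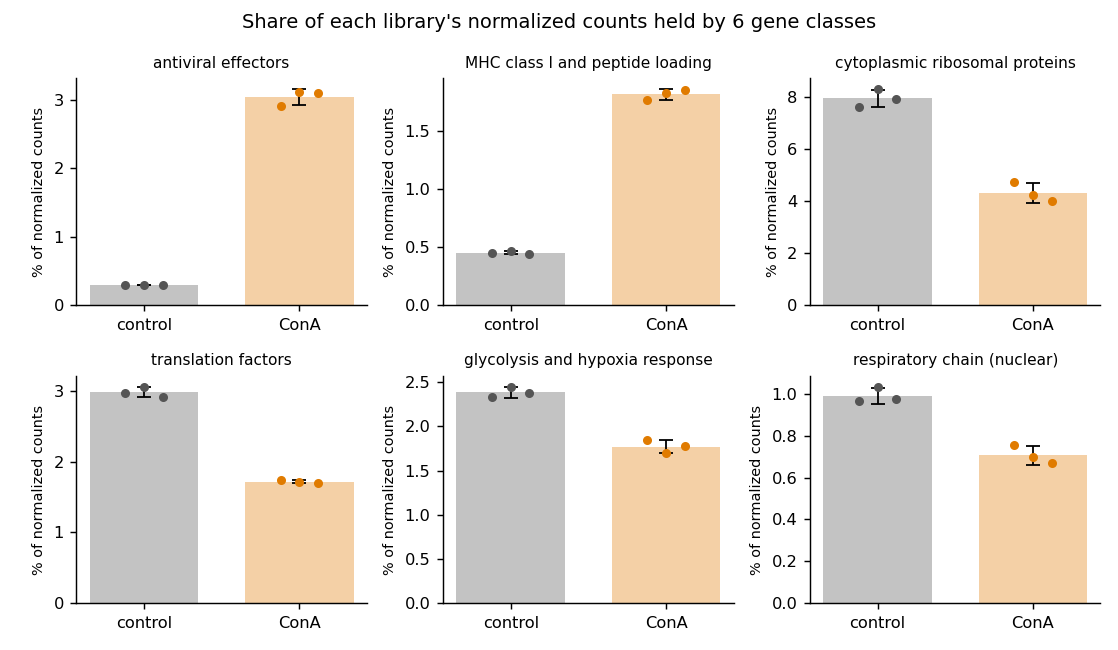
Bars give the mean percent of each library's normalized counts held by a gene class in 3 control and 3 ConA libraries, with points for libraries and error bars for the SD. Antiviral effectors and MHC class I genes take a larger share with ConA and the 4 other classes a smaller one, with no overlap between the groups in any panel.

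The median change also varied with transcript length, which was at hand for 95.2% of genes tested. In 5 equal bins of the longest annotated transcript it was -0.21 for the shortest (up to 2063 bases), then -0.04, 0.03 and 0.08, and 0.11 for the longest (from 5881 bases). Ribosomal protein genes (median 1864.5 bases) and respiratory chain genes (median 1439 bases) belong to the short end. The part of length in their change was not tested. All 83 nuclear genes of the respiratory chain had a negative log2 fold change (median -0.52), against 7612 of all 15139 genes. Of the 83, 1 was called, ATP5PB of the ATP synthase stalk (2.07-fold lower), beside 2.88% of all genes called lower. The number called lower was 5 without ConA replicate 1, 3 without control replicate 4 and 1 without any other library.

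Other metabolic and stress classes gave smaller sets of falls. Of 35 glycolysis and hypoxia genes 5 fell and none rose (median -0.34), among them the angiogenic factor VEGFA (2.33-fold) and NDRG1 (15442, 16232 and 16685 against 6810.4, 5613 and 6063), and 2 were called without the variance trend. Of 34 cholesterol and fatty acid genes 3 fell, ACACA (acetyl-CoA carboxylase, 2.49-fold), PMVK and SCD (2.07-fold, from 142266 ± 7142 to 68823 ± 2046). In the ATF4 amino acid response 6 of 29 fell and 1 rose (median -0.74). The glutathione-degrading CHAC1 fell 3.46-fold, from 2230.0, 2446 and 2346 to 816, 628 and 587, the asparagine synthetase ASNS 2.37-fold and the pseudokinase TRIB3 2.27-fold, while ATF5 rose 3.29-fold. The number of falls in this class was 9 without ConA replicate 1, 6 to 8 without any other library and 1 without the variance trend. Of 28 p53 targets ZMAT3 (2.68-fold) and FDXR fell and none rose (median -0.26). Of 25 NRF2 targets AKR1B10 (3.96-fold) and the cystine carrier SLC7A11 (2.57-fold) fell and none rose (median -0.09). Of these 4, ZMAT3 was called without the variance trend. Over all genes 2.88% were called lower. The summed share of the NRF2 targets was 0.658% of normalized counts in the controls and 0.702% with ConA. Limma called no member among 35 ER chaperone and unfolded protein response genes (median 0.03, 23 at an unadjusted p under 0.05) and 19 heat shock proteins (median -0.06, 14 at that p), where fold changes stayed between -0.84 and 0.98 on the log2 scale. The summed share of the ER chaperone class was higher with ConA, at 1.48 ± 0.0137% of normalized counts against 1.16 ± 0.0140% in the controls (SD, n = 3). That of heat shock proteins was 0.800% against 0.795%. Of the heat shock genes 1 was called higher without ConA replicate 1 or control replicate 5.

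Enzymes of N-glycan synthesis changed little as a class. Of 46 genes of N-glycan assembly and processing 2 fell and none rose, and the median was -0.04. MGAT5, which starts the branch that gives tetra-antennary N-glycans, read 7078, 5845 and 6618 in the controls and 2863, 2633 and 2501 with ConA (log2 fold change -1.29, SE 0.07, adjusted p = 1.98e-09), a call lost without the variance trend. ALG14, which anchors a transferase of the early dolichol-linked steps, fell 2.49-fold. In O-glycan and glycosaminoglycan synthesis 4 of 49 rose and 1 fell, beside 5.83% and 2.88% of all genes. Branching enzymes GCNT4 (at least 15.3-fold) and GCNT3 (5.08-fold) and the heparan sulfate enzyme HS6ST3 (5.18-fold) rose, and GALNT15, which starts mucin-type chains, fell from 947 ± 62.8 to 95.3 ± 21 (SD, n = 3). The cell surface mucin MUC13 rose 6.73-fold.

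The proteases for which ConA is known on these cells did not move together. MMP14, the membrane protease that activates pro-MMP2, was not called, at 159044, 167992 and 164462 and 153141, 141002 and 148198 normalized counts (log2 fold change -0.15, adjusted p = 0.0480), and its sign was positive (0.17) by quantile normalization. Its substrate MMP2 (-0.71, adjusted p = 1.90e-07) and the inhibitor TIMP2 (-0.30, adjusted p = 1.61e-04) did not reach the fold threshold. Collagenase MMP13 rose from 46.3 ± 5.73 to 2627 ± 676, macrophage elastase MMP12 at least 22.2-fold and stromelysin MMP3 7.04-fold, and the inhibitor TIMP3 fell 2.99-fold. Of 15 MMPs tested 5 rose and 2 fell, and without the variance trend 2 of these rises and none of the falls were called. The MMPs listed held 0.454 ± 0.00613% of normalized counts in the controls and 0.422 ± 0.0128% with ConA (SD, n = 3). Among matrix proteins COL8A1 rose (8.07-fold) and TGFBI fell (3.71-fold). The matricellular CCN1, CCN2 and THBS1 were not called, at log2 fold changes of 0.12, -0.32 and -0.51.

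Growth factor classes gave scattered calls in both directions. The EGF receptor ligand BTC (14.2-fold), the WNT agonist RSPO3 (14.6-fold), the Notch ligand DLL1 (4.28-fold) and the BMP receptor ACVRL1 (5.22-fold) rose, and the activin subunit INHBE fell (3.86-fold). Limma called none of the 11 genes of the IGF system, of which 4 had an unadjusted p under 0.05. Of 40 DNA replication genes 10 rose and none fell (median 0.60), led by CLSPN, an adaptor of the replication checkpoint (793, 815 and 758 against 2389, 2584 and 2609), and the origin recognition subunit ORC6 (2.78-fold). Of 36 mitosis genes CDK1 and TTK rose (median 0.45), TTK not by quantile normalization. That count of 2, beside 5.83% of all genes, was 4 without control replicate 4 and 2 to 3 without any other library.

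Large families of transcription factors and surface proteins showed small shifts. Of 432 ZNF genes, many of them repressors of the KRAB class, 309 had a positive log2 fold change and 18 were called higher, none lower, with a median of 0.26. Of all genes 5.83% were called higher. The number of ZNF genes called higher was 11 without ConA replicate 3, 12 without ConA replicate 2 and 13 to 22 without any other library, and 5 without the variance trend. ZNF92 rose most, 4.15-fold. Their median longest transcript was 4079 bases, above the 3581 bases over all genes with a length. Clustered protocadherins, whose transcripts share constant exons so that reads cannot be assigned to 1 member with certainty, had a median of -0.53 and 4 falls in 37 (9 without ConA replicate 1, 2 without ConA replicate 3 or control replicate 4, and none without the variance trend). Among homeobox genes 2 of 54 rose and 1 fell, beside 5.83% and 2.88% of all genes. Of 20 keratins 2 rose, among them KRT6B (at least 21.1-fold), and 2 fell, beside 5.83% and 2.88% of all genes. KRT3 was 1 of these falls (11.1-fold, not called without the variance trend). The keratins gave 1 rise and 3 falls without ConA replicate 1, and 1 rise and no fall without the variance trend.

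The largest falls among non-overlapping genes were single genes of varied function and not members of 1 class. PGAM2, the muscle phosphoglycerate mutase, was at least 7.53-fold lower with ConA, at no more than 3 estimated reads. Its call was lost when any control library was left out, with a pseudocount of 0.1 and without the variance trend. DRD2, the dopamine D2 receptor, read 1461, 1447 and 1562 in the controls and 249, 163 and 179.7 with ConA, a 7.55-fold fall. The calcium-binding protein CAPS fell 6.71-fold and NT5DC2 6.41-fold. DANCR, a noncoding RNA that hosts small nucleolar RNAs, fell from 1812, 2191 and 1907 to 332, 310.4 and 295. The deiminase PADI3, LRRN4CL, FAIM2 and SYNDIG1, at log2 fold changes of -2.76, -2.84, -2.48 and -2.47, were not called without the variance trend. In normalized counts, the 10 largest losses among called genes were those of EEF1A1, EEF2, ACTG1 (2.06-fold), RPS2, RPL4, RPLP0, RPL3, SCD, RPS3 and RPS6. The calls of ACTG1, SCD and RPS3 were lost by quantile normalization, and that of RPS3 also without control replicate 5.

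**Figure D5:**
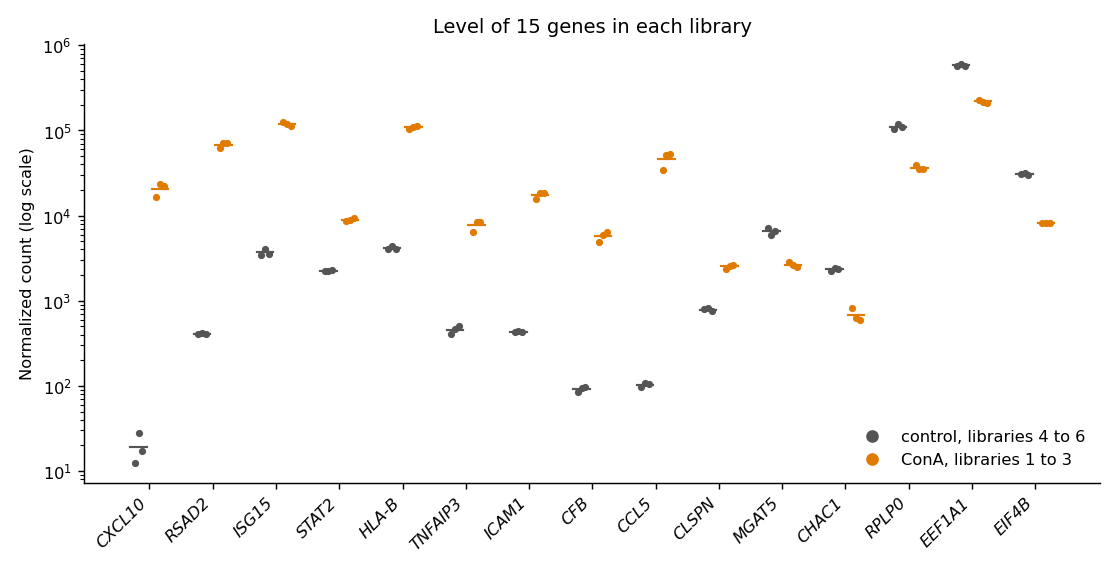
Normalized counts (log scale) of 15 genes in the 3 control and 3 ConA libraries, with points for libraries and short lines for group means. CXCL10 goes from 12.5 to 28.0 in the controls to between 16553 and 23373 with ConA, and EEF1A1 at the right goes from 566880.0 or more to 227424 or less; no gene shown has overlapping groups.

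The change with ConA was set against that with 40 nM PMA, a phorbol ester that activates protein kinase C, which the other experiment gave for 24 h with 3 libraries and 3 untreated controls of its own. Treatment and experiment cannot be told apart in this comparison. The difference of the changes was called for 1587 of 15030 genes tested in both (10.6%), and for 653 of the 1246 genes called with ConA. All 50 antiviral effectors called with ConA differed, each with the higher change under ConA, and the class had a median log2 fold change of -0.54 with PMA. For STAT2 the difference was 2.22 (SE 0.07, adjusted p = 1.02e-14) and for HLA-B 4.16 (SE 0.08). Ribosomal protein genes had a median of -0.08 with PMA, and 19 differed with the lower change under ConA. Of the 10 NF-kB genes called with ConA 2 differed. For CCL3, with log2 fold changes of 6.41 with ConA and 6.59 with PMA, the difference was -0.18 (SE 0.38) and was not called, and for IL6 it was -1.62, the larger change being with PMA.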

How the data were processed

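Messenger RNA of HT1080 cells was sequenced in 3 ConA-treated and 3 untreated libraries, and in 6 further libraries of the PMA experiment that were used for 1 comparison. What the authors deposited is a signal value per gene and library, a read count after normalization (normalized count). The submitters' processing notes name Partek, Bowtie2, STAR, DESeq2 and the builds hg19 and mm10, with no role or order, and the gene annotation is not given in the sources used here. The values were close to whole multiples of 1 factor per library for 80.2 to 81.4% of genes (within 0.02 of a whole number, values worth 5 to 60 reads), from which depth was estimated, but whole reads could not be recovered for nearly all genes, so no count test was run. Squared differences between replicates were 5.20 to 15.0 times the sampling variance, and no library repeated another. Folds against a group at 3 estimated reads or fewer in every library were set against 3 reads, and such bounds cover counting error only. Counting intervals were not computed for single values.

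The 6 libraries were fitted with limma 3.58.1 (R 4.3.3) on log2(normalized count + 1), with a variance trend over the mean level and Benjamini-Hochberg adjustment over all genes with a mean of at least 10. Fold changes on this scale understate the change of low genes. The difference from PMA was the interaction term of 1 fit over 12 libraries. Classes are described by counts and medians. The members, classes and tests were chosen with earlier results of these data known. Named genes were the 15 largest rises and falls, the 3 largest changes of each class with called members of the immune, signalling and glycan classes, the 10 largest gains and losses in counts, the largest differences from PMA and 6 genes that the study discusses. ASNS, TRIB3, CASP8, CFLAR, MLKL, CTSL, RPL13AP5, APOBEC3B, IRF9, IRGM, CIITA, HLA-DRA and VEGFA fell outside this rule or were named after their values were seen. Alternatives were other pseudocounts and minimum levels, quantile normalization, median centring, no variance trend, a looser p and 1 fit of 12 libraries. Each of the 6 libraries of the ConA experiment was also left out in turn.

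Promoters are RefSeq sequences (GRCh38.p14), matched by symbol for 11545 genes, and lengths are of the longest GENCODE 29 transcript. Letters were read from that build and not placed on the authors' own. The authors' value columns were all used. The script was checked on simulated data. Sequences were read with Python 3.11.15 and pandas 2.3.3, and plots drawn with matplotlib 3.10.9 and numpy 2.4.6.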

Additional observations from a re-analysis of the deposited data

Results flagged for a closer look

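The change with ConA differed from that with PMA, by the interaction term, for 653 genes called with ConA. The 5 largest differences toward ConA, as ConA minus PMA log2 fold change, were those of IFI44L (9.82), CXCL11 (9.20), RSAD2 (8.88), TNFSF10 (7.68) and MX2 (7.63). IFI44L went from 56.8 ± 0.636 to 6437 ± 629.9 normalized counts with ConA (SD, n = 3) against a log2 fold change under PMA of -3.02. CXCL11, a CXCR3 ligand, went from 13.5, 23 and 22 to 10243, 13896 and 12696 with ConA. MX2, a GTPase that restricts nuclear entry of viruses, had log2 fold changes of 5.00 with ConA and -2.63 with PMA.

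The 5 largest differences toward PMA were those of CXCL3 (-4.18), MMP1 (-3.87), PCDHGC5 (-3.55), KRT3 (-3.45) and SERPINB2 (-3.37). Interstitial collagenase MMP1 rose with ConA by a log2 fold change of 1.78 and had one of 5.65 with PMA. SERPINB2 (PAI-2) gave 3.90 and 7.27. KRT3 fell with ConA (-3.55) against -0.10 under PMA on the log2 scale. Each experiment had its own untreated controls, and the tables were normalized separately.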

How the results depend on the processing

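Without the variance trend 662 genes were called (506 higher, 156 lower), of which 659 were shared with the 1318, and 76.4% of calls were higher against 66.9%, or 60.7% and 60.6% by quantile normalization and median centring. At an adjusted p of at most 0.05, 664 genes were called lower. Each of the 6 libraries of the ConA experiment was left out in turn, and none of the PMA experiment. The calls then numbered 1122 to 1417, the higher calls 744 to 895 and the lower calls 357 to 522. The differences from PMA numbered 1427 to 1593. Other pseudocounts, minimum levels and normalizations kept these counts within 1.5 times, and 1 fit of 12 libraries, run for the total only, gave 1273 calls. The sign of MMP14 turned to 0.17 by quantile normalization. The looser p and the fit of 12 libraries were not followed for single genes. Under the other alternatives, 143 of the 195 genes named here kept their side of the threshold throughout. Of the 195, 33 lost a call without the variance trend and under no other of these, and 11 lost it with a library left out. Without the variance trend the calls of AKR1B10, ASNS, BATF3, BCL2A1, CACNA1I, CASP8, CEACAM1, CHAC1, CSF2, CXCL3, CXCL9, FAIM2, FDXR, GZMA, IDO1, IFNL1, IL16, IL1RN, INHBE, ITGB4, KLF2, KRT3, LRRN4CL, MAF, MGAT5, MMP1, MMP12, MMP3, MUC13, NT5E, PADI3, PCDHGC5, PGAM2, PMVK, RPL13A, RPS2, RPS3, SLC7A11, SNHG9, SYNDIG1, TNIP3, TRIB3, VCAM1 and VEGFA were lost. No paired analysis was possible because ConA replicates 1 to 3 and control replicates 4 to 6 share no number. The alternative share without mitochondrially encoded mRNAs gave no value, since none was tested. Depth limits the genes with few reads, 52 of which were at 3 estimated reads or fewer in all 3 controls, and 1 cell line, dose and time were sampled.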

Other observations

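A list of 15 acute phase proteins, written after the values were seen, had 6 tested members, 4 of which rose with ConA. SAA1, the inducible serum amyloid A, read 25, 25 and 29.6 normalized counts in the controls and 2288, 2812 and 2761 with ConA, and its near-identical copy SAA2, with which it may share reads, rose 85.4-fold. The complement component C3 went from 219 ± 27 to 8018 ± 484 (SD, n = 3) and the glycoprotein LRG1 rose 13-fold. Since the list was chosen on these values, its count is a description only.

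A list of 24 small nucleolar RNA host genes named SNHG, also written after the values were seen, had a median log2 fold change of -0.48, with 21 negative members, 4 called lower and none higher. SNHG29, with the most normalized counts of these 4, fell from 35489.7 ± 1431 to 13180.3 ± 1482 normalized counts, and SNHG9 fell 4.56-fold, the latter not without the variance trend.

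Among genes of no class, HSH2D, a haematopoietic SH2 adaptor, rose 87.6-fold, and the calcium channel subunit CACNA1I went from 5.21, 4.00 and 0 to 281, 339.7 and 438, where the call was lost without the variance trend.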
